A study of Mus musculus with 8 samples.

Results

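A set of 10 genes of the sarcoplasmic reticulum was followed through RNA-seq counts of mouse hearts at E10.5: Casq1, Casq2, Ryr2, Atp2a1, Atp2a2, Pln, Sln, Hrc, Jph2 and Trdn. The 10 symbols were matched through RefSeq to Entrez gene IDs of the deposited table, and all 10 were found among its 27179 genes. All 10 also passed the filter on low counts that left 15086 genes to test. They were chosen by function, with results of the same comparison of genotypes already known. Their levels and differences are therefore given as a description, without p-values.

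The sarcoplasmic reticulum is the calcium store of muscle cells. At each beat, calcium entering through surface channels opens ryanodine receptors in the reticulum membrane, stored calcium flows out to the contractile apparatus, and calcium pumps (SERCA) return it. Calsequestrins bind calcium inside the store, triadin ties them to the release channel, junctophilin holds the reticulum close to the surface membrane, and the small proteins phospholamban and sarcolipin restrain the pump. Several of these proteins come in a form typical of adult heart and a form typical of fast skeletal muscle, encoded by separate genes.

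The study sequenced RNA of 8 whole embryonic hearts, 1 library each. By the labels, 5 hearts were MOZ WT (Kat6a+/+) and 3 were MOZ KO (Kat6a-/-, both alleles lost). The Kat6a protein, or MOZ, acetylates histones. Not given in the sources used here were the design of the mutant allele, the strain, the litters and the sexes. The p-values therefore cover the spread among the 8 hearts, which may be partly technical. Total counts ran from 19911803 to 34539787 per heart. RNA of Kat6a itself, in CPM (counts relative to the scaled library size), stood at 138 to 156 in MOZ WT and 133 to 141 in MOZ KO. With the removed part of the gene unknown, this total over its exons is no check of the genotype, and the groups are used as labelled. The 2 MOZ WT hearts numbered 4 and 5 had Xist RNA (307 and 301 CPM of total counts), which marks female cells, and the other 6 hearts, among them all MOZ KO hearts, had at most 0.372. The sample descriptions number the MOZ KO hearts ahead of the MOZ WT hearts; an effect of that order and one of genotype cannot be told apart. These are counts of whole hearts, in which fewer cells of a type and less RNA per cell cannot be told apart.

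The start regions of the 3 members that passed the threshold of the test across all genes, described below, are shown first, since they belong to the cardiac and skeletal calsequestrins and the cardiac release channel. Each is the 250 bases before the annotated gene start, read along the gene's own strand (RefSeq, GRCm38.p6, which is mm10 in the naming of genome browsers). Capitals mark E-boxes (CANNTG, bound by basic helix-loop-helix factors) and, in Casq2 alone, also a match to the MEF2 consensus, bound by MEF2 muscle factors.
Casq1, chr1:172219896-172220145, minus strand: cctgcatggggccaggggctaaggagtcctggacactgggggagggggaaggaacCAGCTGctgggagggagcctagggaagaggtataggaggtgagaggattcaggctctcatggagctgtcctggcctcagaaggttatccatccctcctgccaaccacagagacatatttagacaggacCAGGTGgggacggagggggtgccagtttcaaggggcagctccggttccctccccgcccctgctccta
Casq2, chr3:102086165-102086414, plus strand: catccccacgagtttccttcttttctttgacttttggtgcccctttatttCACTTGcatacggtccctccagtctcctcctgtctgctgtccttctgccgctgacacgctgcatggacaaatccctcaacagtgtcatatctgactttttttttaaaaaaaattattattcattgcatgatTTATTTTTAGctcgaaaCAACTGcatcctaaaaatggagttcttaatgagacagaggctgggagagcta
Ryr2, chr13:12106946-12107195, minus strand: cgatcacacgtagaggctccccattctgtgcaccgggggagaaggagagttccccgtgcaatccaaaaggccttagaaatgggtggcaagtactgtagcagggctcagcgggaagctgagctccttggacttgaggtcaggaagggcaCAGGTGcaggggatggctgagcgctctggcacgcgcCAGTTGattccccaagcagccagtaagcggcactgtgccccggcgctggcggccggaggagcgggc
Each of these 3 windows held 2 E-boxes, and that of Casq2 held 1 MEF2 match between them; sites were searched on both strands, a site read on both strands was counted once, and no MEF2 match overlapped an E-box. A window was found for 7 of the 10 members, with a pair of starts for Jph2, and each window of Atp2a1, Pln, Hrc and Jph2 held 1 E-box. Casq2 was the member with a MEF2 match, and no window held a CArG box, the site of serum response factor. Of 32851 windows of this length before annotated gene starts, 66.2% held an E-box, 2.92% a MEF2 match and 1.47% a CArG box. The share of windows with 2 or more E-boxes was not computed, so nothing is read from the number of E-boxes per window. Such matches describe letters and do not show binding.

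The levels of the members per length spanned from 508 down to 1.12 RPKM (CPM per kilobase of the gene length in the deposited table). Atp2a2, the calcium pump gene of heart, had the highest level, 508 ± 17.2 RPKM (SD, n = 5 MOZ WT hearts). Casq1, the calsequestrin gene typical of fast skeletal muscle, followed with 215 ± 17.8 RPKM and stood at percentile 98.5 of all genes tested. Pln, encoding phospholamban, had 141 ± 24.8 RPKM, and Jph2, encoding the junctophilin of heart, 122 ± 3.29 RPKM. Hrc, which encodes a histidine-rich calcium-binding protein of the store, had 75.8 ± 2.86 RPKM. The release channel gene Ryr2 had 30.4 ± 2.35 RPKM and Trdn, encoding triadin, 18.3 ± 1.47 RPKM.

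Casq2, the calsequestrin gene of adult heart, came only after these, with 9.19 ± 1.42 RPKM, at percentile 51.2. Atp2a1, the pump gene of fast skeletal muscle, had 5.04 ± 1.91 RPKM. Sln, encoding sarcolipin, was lowest with 1.12 ± 0.753 RPKM, from 4 to 30 counts per heart. The ranges of neighbours in this order did not overlap over the 5 MOZ WT hearts, with 2 exceptions: Pln (113 to 179 RPKM) overlapped Jph2 (118 to 126 RPKM), and Atp2a1 (2.24 to 7.34 RPKM) overlapped Sln (0.260 to 2.33 RPKM). The order of the group means was the same in MOZ KO hearts.

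**Figure D1:**
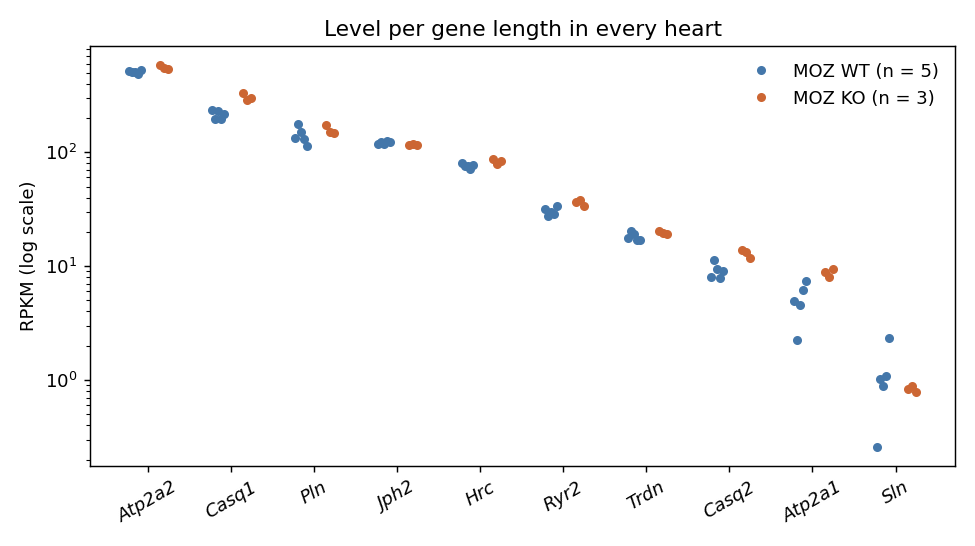
RPKM (log scale) of the 10 genes in every heart, ordered by their mean in MOZ WT; each point is a heart, blue for MOZ WT and orange for MOZ KO. Casq1 lies between Atp2a2 and Pln, far above Casq2, and the MOZ KO means keep the order of MOZ WT.

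The skeletal and cardiac isoforms thus stood in opposite order in different parts of the store. For calsequestrin the skeletal gene was higher: the RPKM of Casq1 was 28.9, 17.3, 24.3, 24.9 and 23.7 times that of Casq2 in MOZ WT replicates 1 to 5, and 23.9, 21.8 and 25.6 times in MOZ KO replicates 1 to 3. The ratio was 23.8 ± 4.17 in MOZ WT and 23.7 ± 1.87 in MOZ KO, and the groups overlapped. For the pump the cardiac gene was higher: the RPKM of Atp2a2 was 104, 225, 113, 78.7 and 71.7 times that of Atp2a1 in MOZ WT replicates 1 to 5, and 64.6, 68.4 and 56.9 times in MOZ KO replicates 1 to 3. All 3 MOZ KO values lay under the lowest MOZ WT value, which was that of replicate 5.

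In further comparisons of related genes, chosen after their values were seen, the gene typical of heart or of muscle was the higher one in MOZ WT. The RPKM of Ryr2 was 237 to 595 times that of Ryr1, the release channel gene of skeletal muscle, in MOZ WT, where Ryr1 stood at 0.718 to 2.18 CPM. It was 28.4 to 56.8 times that of Ryr3, the third ryanodine receptor gene. Jph2 stood 43.7 to 56.6 times over Jph1, the junctophilin gene of skeletal muscle. Atp2a2 stood 161 to 296 times over Atp2a3, a pump gene of non-muscle cells. At the surface membrane, Cacna1c, the main channel subunit of heart, stood 11.1 to 20.7 times over Cacna1s, that of skeletal muscle. The order was not the same for all partners of the release channel: Fkbp1a, the widely expressed gene whose protein binds the skeletal channel, had 317 ± 23.1 RPKM, and Fkbp1b, whose protein binds the cardiac channel, had 4.28 ± 0.460 RPKM.

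Markers of skeletal muscle cells were read beside these levels, 17 in all. Among the regulators of the lineage, Myf5 and Mymk had 0 counts in every heart, which allows up to 3 counts or 0.152 CPM per heart. Myod1 had 1 count over all 8 hearts, Myf6, Pax7 and Pax3 had 3 each, and Myog had at most 6 in a heart. Genes of the contractile apparatus from the same list ranged widely. In MOZ WT, Mylpf, a myosin light chain, had 14.2 to 20.6 CPM, Actn3, an actinin, 7.85 to 15.3 CPM and Tnnt3, a fast troponin T, 9.51 to 12.3 CPM. Lower were Neb with 2.14 to 2.99 CPM, Myh3 with 0.261 to 0.670 CPM and Tnnc2 with 0.162 to 0.643 CPM. Myl1, a light chain gene typical of fast skeletal muscle but placed in the atrial list, had 129 to 155 CPM. Casq1 had 367 to 437 CPM in the same hearts. What skeletal muscle cells or heart muscle cells each gave to these levels was not tested. The summed level of 12 cardiomyocyte markers, such as Tnnt2, Actc1 and Myh6, was 36069 to 38577 CPM in MOZ WT and 38219 to 41998 CPM in MOZ KO.

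The members also differed in how much they varied between hearts of 1 genotype. The coefficient of variation of CPM over the 5 MOZ WT hearts was 2.70% for Jph2, 3.39% for Atp2a2 and 3.77% for Hrc. It was between 7.75% and 8.31% for Ryr2, Trdn and Casq1, 15.4% for Casq2, 17.6% for Pln, 37.9% for Atp2a1 and 67.4% for Sln. Single hearts were highest or lowest for several members. In Dixon's outlier test, however, none of the 5 MOZ WT hearts was an outlier for any member. That test sets the gap to the nearest heart over the range against a critical value of 0.71. MOZ WT replicate 2 had the lowest Atp2a1 of all hearts (7.71 CPM) and the highest Pln (443 CPM), and in MOZ WT the highest Trdn (92.3 CPM) and Casq2 (28.1 CPM). MOZ WT replicate 5 had the highest Atp2a1 of its group (25.3 CPM) with the lowest Pln (279.7 CPM) and the lowest Trdn (76.7 CPM). Relative to the mean of MOZ WT, Pln and Trdn were both above 1 in replicates 2 and 3. Both were under 1 in replicates 1, 4 and 5. Atp2a1 was under 1 in replicates 1, 2 and 3. It stood at 1.21 and 1.46 in replicates 4 and 5, the hearts with Xist RNA. Whether the level of Atp2a1 goes with Xist RNA was not tested.

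**Figure D2:**
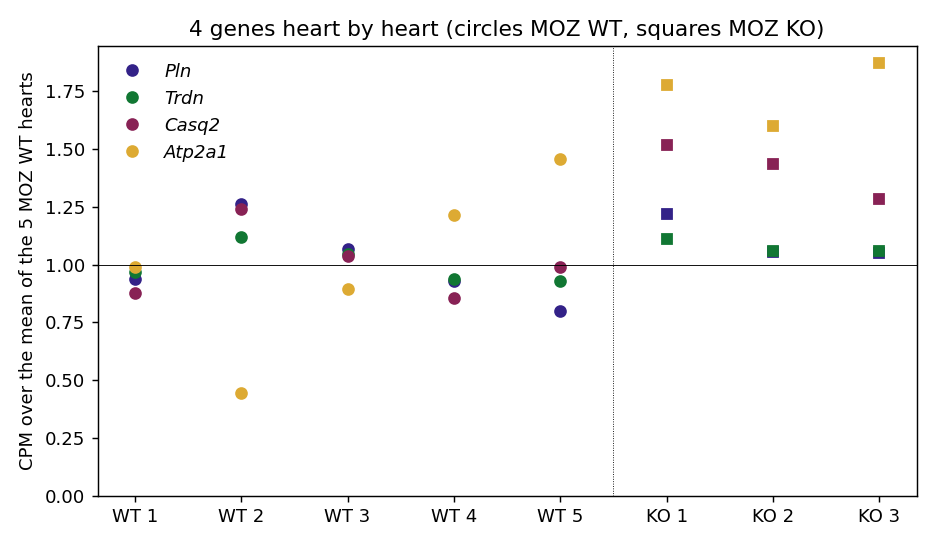
CPM of Pln, Trdn, Casq2 and Atp2a1 in each heart, divided by the gene's mean over the 5 MOZ WT hearts (circles MOZ WT, squares MOZ KO). In MOZ WT replicate 2, Atp2a1 stands at 0.444 of the mean while Pln stands at 1.26, and in replicate 5 they stand at 1.46 and 0.798.

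Sln, which later marks atrial muscle, was the most variable member. It had 0.135, 0.527, 0.464, 0.566 and 1.21 CPM in MOZ WT replicates 1 to 5, from 4 counts in replicate 1 to 30 in replicate 5.

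For likeness of pattern, log2 CPM over the 8 hearts was compared after the mean of each genotype was taken off. The genes most like Casq1 were Aatf, Slc35g1 and Mrps24, and those most like Casq2 were Trim47, Cyp51 and Rtn4, with Pearson r between 0.970 and 0.995 (no p was computed). These were the highest of 12033 genes compared over 8 hearts. Between Casq1 and Casq2 themselves, r was -0.093.

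The comparison of genotypes asks how the RNA of the heart differs when Kat6a is lost; it was read for the calcium store as a description. Of the 10 members, 3 passed an adjusted p of 0.05 in edgeR's quasi-likelihood test across all genes, Casq1, Casq2 and Ryr2, all higher in MOZ KO, and 0 were lower. In the same test 2.67% of all 15086 genes passed in either direction, 1.44% were higher and 1.23% lower. By DESeq2 the same 3 members passed, by limma voom these and Atp2a1, and an unadjusted p under 0.05 in edgeR was reached by 5. Over all genes the shares were 3.39% by DESeq2, 2.45% by limma voom and 14.2% at an unadjusted p under 0.05. The median log2 fold change (MOZ KO over MOZ WT) of the 10 members was 0.14, and that of all genes tested was -0.00015. The CPM values of the groups did not overlap for 5 members, all with MOZ KO above, beside 9.59% of all genes without overlap, 4.77% with MOZ KO above and 4.81% below. Without the hearts with Xist RNA 2 members passed, Casq1 and Ryr2, beside 1.88% of all genes, with 1.10% higher. Since the members were chosen with these values known, nothing is read from the counts.

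**Figure D3:**
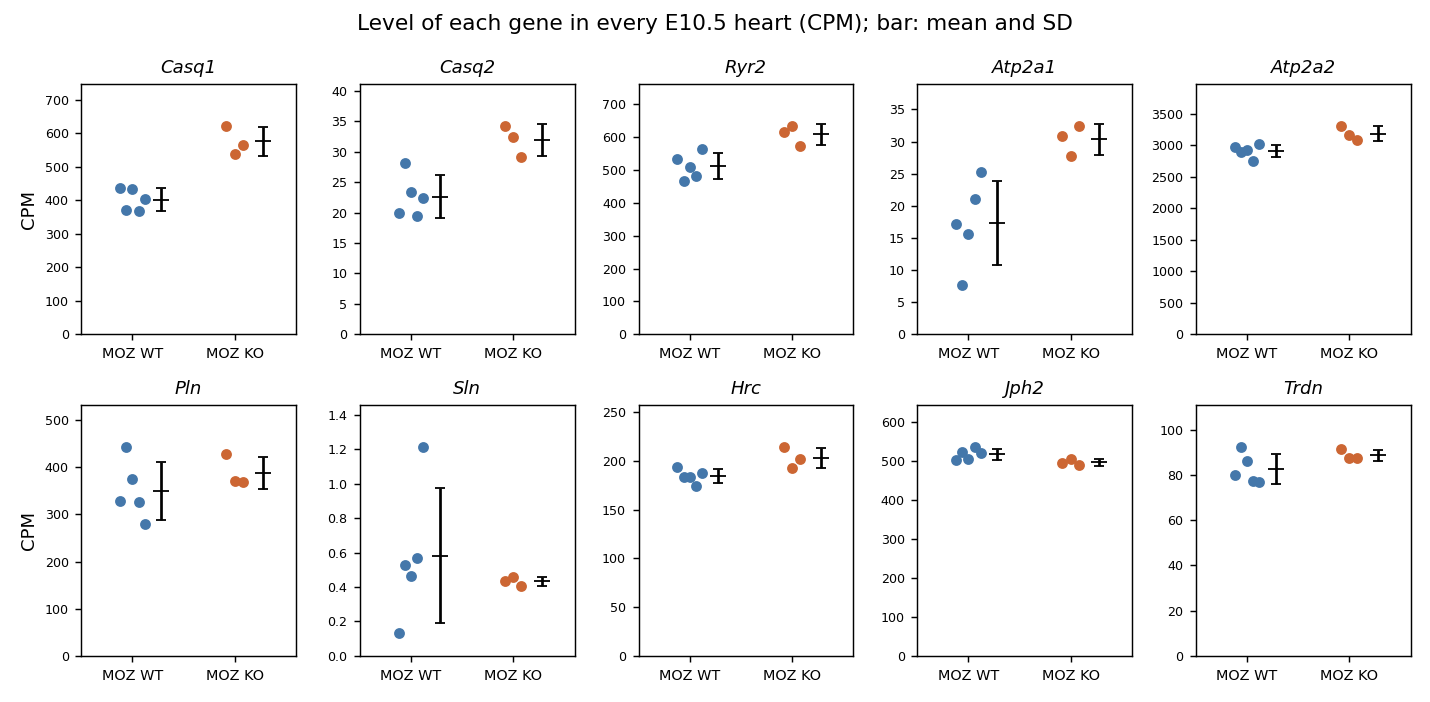
CPM of each gene in every heart (blue MOZ WT, n = 5; orange MOZ KO, n = 3), each panel on its own axis from 0, with the mean and SD of the group beside the points. Casq1, Casq2, Ryr2, Atp2a1 and Atp2a2 have all 3 MOZ KO hearts above the 5 MOZ WT hearts, while Jph2 does not.

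Among the genes of calcium-binding proteins of the store, both calsequestrin genes passed and Hrc did not. Whether the differences of these genes were unequal was not tested. Casq1 (Entrez gene 12372, chromosome 1, 172209894 to 172219895) had 437, 370.2, 433, 367 and 403 CPM in MOZ WT replicates 1 to 5 and 623, 539 and 565 CPM in MOZ KO replicates 1 to 3. Every MOZ KO heart lay above every MOZ WT heart, and the log2 fold change was 0.52 ± 0.06 (SE). It passed in all 17 alternative analyses, with log2 fold changes from 0.46 to 0.56, and was 0.48 without the hearts with Xist RNA. These analyses reuse the same hearts for a gene chosen with its result known, so they add no independent support. Its exons share 156 bases with the noncoding gene Gm17224 on the opposite strand, not analysed here.

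Casq2 (Entrez gene 12373, chromosome 3, 102086415 to 102146514) had 19.9, 28.1, 23.4, 19.4 and 22.3 CPM in MOZ WT and 34.3, 32.4 and 29.1 CPM in MOZ KO. The groups did not overlap, though MOZ KO replicate 3 stood close to MOZ WT replicate 2. The log2 fold change was 0.50 ± 0.10, close to that of Casq1 on a level far lower, and Casq2 no longer passed without MOZ KO replicate 1 (0.44) or 2 (0.49), or without the hearts with Xist RNA (0.43).

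Hrc (chromosome 7, 45335269 to 45338973), the other calcium-binding protein of the store, had 194, 183, 183, 175 and 187 CPM in MOZ WT and 214, 193 and 202 CPM in MOZ KO. The lowest MOZ KO heart lay within the MOZ WT range, and the log2 fold change was 0.14 ± 0.05. The RPKM of Casq1 over that of Hrc was 2.83 ± 0.173 in MOZ WT and 3.68 ± 0.0836 in MOZ KO, with no overlap (2.63 to 3.07 against 3.62 to 3.77). Casq1 over Ryr2 did overlap, with 6.40 to 7.66 in MOZ WT and 7.61 to 9.07 in MOZ KO. For these and the other ratios given, the share of all gene pairs without overlap was not computed.

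At the release site, Ryr2 passed and Trdn and Jph2 did not; whether their differences were unequal was not tested. Ryr2 (Entrez gene 20191, chromosome 13, 11553099 to 12106945) had 533, 467, 507, 480.0 and 565 CPM in MOZ WT and 616, 635 and 572 CPM in MOZ KO. The lowest MOZ KO heart lay just above the highest MOZ WT heart, replicate 5, and the log2 fold change was 0.25 ± 0.06. It no longer passed without MOZ WT replicate 3 (0.25) or MOZ KO replicate 1 (0.24) or 2 (0.22), and did so without the hearts with Xist RNA (0.27).

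Trdn (chromosome 10, 33083483 to 33476709) had 79.8, 92.3, 86.1, 77.3 and 76.7 CPM in MOZ WT and 91.6, 87.4 and 87.3 CPM in MOZ KO, which overlapped, with a log2 fold change of 0.11 ± 0.06. Jph2 (chromosome 2, 163336242 to 163398049) had 502, 523, 506, 537 and 522 CPM in MOZ WT and 496, 507 and 489.9 CPM in MOZ KO, with a log2 fold change of -0.06 ± 0.04. Jph2 and Sln were the members with a value under 0. The RPKM of Jph2 over that of Ryr2 was accordingly 3.65 to 4.43 in MOZ WT and 3.16 to 3.38 in MOZ KO, with no overlap. The RPKM of Ryr2 over that of Trdn overlapped between the groups, with 1.36 to 1.98 in MOZ WT and 1.76 to 1.95 in MOZ KO.

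The pumps did not pass. Atp2a2 (Entrez gene 11938, chromosome 5, 122453513 to 122502225) had 2972, 2886, 2917, 2756 and 3014 CPM in MOZ WT and 3311, 3158 and 3077 CPM in MOZ KO. All MOZ KO hearts lay above all MOZ WT hearts by a small step, with a log2 fold change of 0.13 ± 0.05.

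Atp2a1 (Entrez gene 11937, chromosome 7, 126445858 to 126463103) had 17.2, 7.71, 15.5, 21.1 and 25.3 CPM in MOZ WT and 30.8, 27.8 and 32.5 CPM in MOZ KO. The groups did not overlap, and the log2 fold change of 0.81 ± 0.34 had the largest value and, after Sln, the largest error of the 10. Without MOZ WT replicate 2 the value was 0.63 and passed; without the hearts with Xist RNA it was 1.15 and did not. Its annotated exons share 763 bases with those of Rabep2 on the opposite strand, which had 24.2 ± 1.44 CPM in MOZ WT and 26.9 ± 0.965 in MOZ KO. With a strand setting not given in the sources used here, some reads of the pair may be mixed.

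The genes of the small pump inhibitors overlapped between the groups. Pln (chromosome 10, 53337686 to 53345999) had 329, 443, 374, 326 and 279.7 CPM in MOZ WT and 428, 370.2 and 368 CPM in MOZ KO, with a log2 fold change of 0.15 ± 0.15. The RPKM of Atp2a2 over that of Pln was 3.69 ± 0.681 in MOZ WT and 3.56 ± 0.179 in MOZ KO. Sln (chromosome 9, 53850251 to 53853849) had 0.435, 0.457 and 0.405 CPM in MOZ KO, inside the MOZ WT range, and its log2 fold change of -0.40 ± 0.53 turned to 0.060 without MOZ WT replicate 5. Exons of Pln share 141 bases with Cep85l, also on the opposite strand.

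The other genes of calcium handling were taken from 5 lists with 61 genes, of which 58 were found in the table and 56 were tested. Of the 56, 4 rose and 1 fell in MOZ KO past the same threshold (quasi-likelihood test of edgeR), beside 2.67% of all genes. The median log2 fold change of the 56 was 0.01. Like the members, these lists were chosen with earlier results of these data known. Nothing is therefore read from the counts, and the adjusted p-values below carry the same limit. Among partners of the release channel 2 of 14 rose. Sypl2, a synaptophysin-like protein of the triad junction, had 3.65, 3.73, 2.73, 2.87 and 2.67 CPM in MOZ WT and 5.12, 6.15 and 5.80 CPM in MOZ KO. It rose by 0.86 ± 0.17 (SE) on the log2 scale, with all MOZ KO hearts above all MOZ WT hearts (edgeR adjusted p = 0.00735). Camk2d, the calcium/calmodulin kinase that phosphorylates the cardiac release channel, rose by 0.19 ± 0.05, from 149 ± 5.94 to 169.7 ± 5.50 CPM (edgeR adjusted p = 0.0263).

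Among 11 genes of the reticulum membrane and junction 2 rose. Srl, encoding the luminal calcium-binding protein sarcalumenin, rose by 0.24 ± 0.06, from 644 ± 50.9 to 763 ± 43.2 CPM (edgeR adjusted p = 0.0263). Tmem38a, encoding a cation channel of the reticulum membrane, rose by 0.22 ± 0.06, from 61.1 ± 2.46 to 71.4 ± 4.43 CPM (edgeR adjusted p = 0.0356). Among 10 genes of inositol trisphosphate receptors and store-operated entry 1 fell, Stim1, the calcium sensor of the store. It fell by 0.36 ± 0.08, from 25.4 ± 1.53 to 19.8 ± 1.24 CPM (edgeR adjusted p = 0.0168).

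None of 7 pumps and pump regulators outside the members passed by edgeR, by DESeq2 or by limma voom, and 0 had an unadjusted p under 0.05. Those of smallest p were Ppp1r3a (log2 fold change 0.16 ± 0.11) and Atp2b1 (0.08 ± 0.05). Of 14 surface channels and exchangers 0 passed by edgeR, 4 had an unadjusted p under 0.05, DESeq2 called 2 and limma voom 1, beside 14.2%, 3.39% and 2.45% of all genes. Cacna1d, a calcium channel subunit of pacemaker and atrial cells, had 43.2 ± 5.96 CPM in MOZ WT and 31.7 ± 4.71 CPM in MOZ KO (log2 fold change -0.45 ± 0.12, edgeR adjusted p = 0.0859), and DESeq2 called it lower. Cacna2d2, an accessory channel subunit, had 437 ± 50.3 CPM and 532 ± 7.33 CPM (0.29 ± 0.08, edgeR adjusted p = 0.109), and DESeq2 called it higher.

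**Figure D4:**
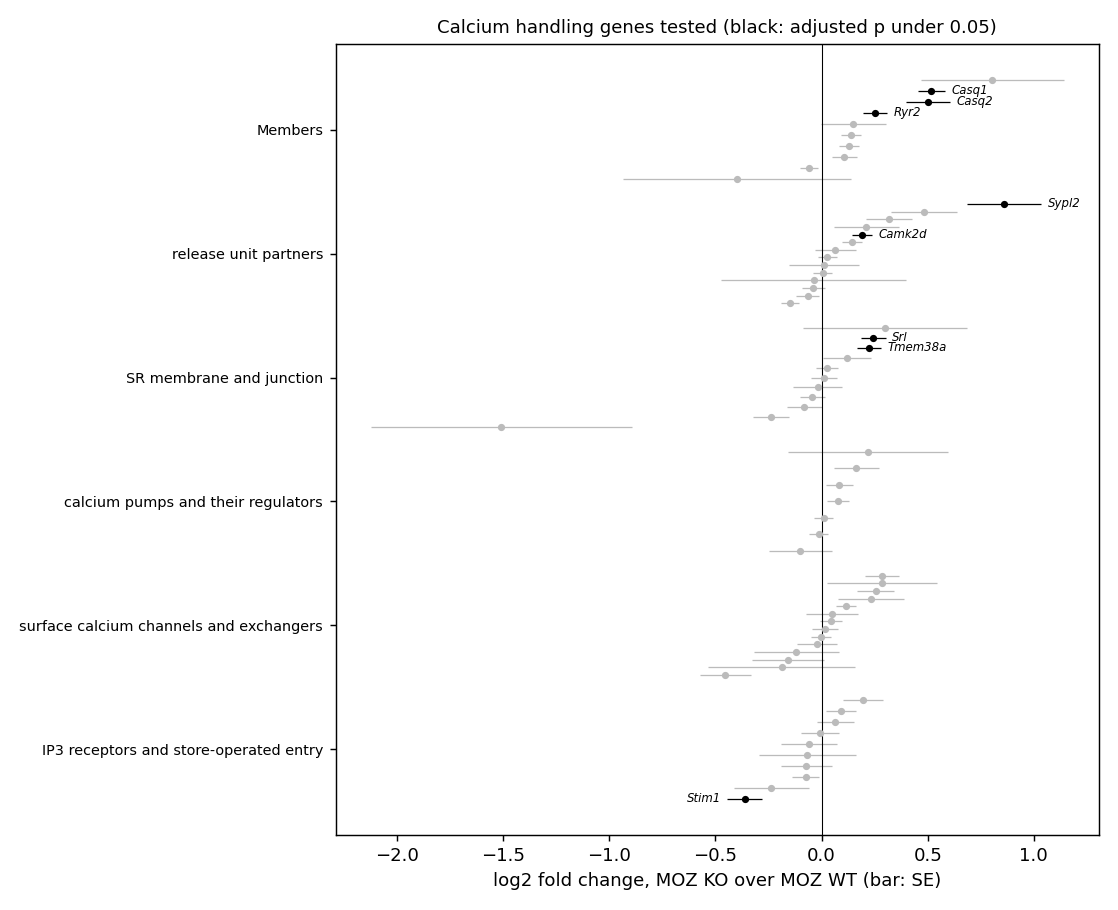
Log2 fold changes of MOZ KO over MOZ WT with their SE for the 10 members and the 56 other calcium handling genes tested, in 5 groups; black points passed an adjusted p of 0.05 in edgeR's test and carry their symbol. Most points lie near 0, 4 genes outside the members rose and Stim1 fell.

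These calls rested on few hearts. Without the hearts with Xist RNA, 1 of the pathway genes passed by edgeR in place of 5, Cacna2d2 (0.38, adjusted p = 0.00582), and the 5 genes called over all hearts kept their direction, with adjusted p from 0.0555 for Sypl2 to 0.140 for Srl. Without MOZ KO replicate 1 Sypl2 alone passed, without MOZ WT replicate 3 or 4 or MOZ KO replicate 3 Sypl2 and Stim1 passed, without MOZ WT replicate 1 these and Camk2d, and without MOZ WT replicate 2 the number was 9. On leaving out MOZ KO replicate 2, Camk2d, Srl, Sypl2 and Tmem38a passed. On leaving out MOZ WT replicate 5, Cacna2d2, Camk2d, Sypl2 and Tmem38a passed as higher, and Cacna1d and Stim1 as lower. Among members, Casq2 and Ryr2 passed neither without MOZ KO replicate 1 nor without MOZ KO replicate 2. MOZ KO replicate 1 stood apart in some immediate early genes, which respond quickly to handling and other stimuli. It had 55.7 CPM of Egr1 against at most 15.3 in the other 7 hearts, 16.9 of Fos against 4.78 to 7.90, and 228 of Jun against 108 to 143. From the same list of 9, Fosb, Hspa1a and Ier2 were also highest in this heart, Ier2 with 60.0 CPM against 58.4 in MOZ WT replicate 5. Junb (9.10 CPM) and Hspa1b (5.42 CPM) lay within the range of the other hearts, and Dnajb1 (52.6 CPM) was the lowest of the 8 hearts. The part of these genes in the results was not tested.

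Markers of other cell types moved with genotype as well, and their part in these differences was not tested. Beside the counts by edgeR here and in the next paragraph, 2.67% of all genes passed, 1.44% higher and 1.23% lower. Of 12 cardiomyocyte markers 2 rose, Myl3 (0.27 ± 0.06) and, close to the threshold, Tnni3 (0.20 ± 0.05, edgeR adjusted p = 0.0492). Of the 12, 0 fell and the median was 0.11, while DESeq2 called 3 and limma voom 1. Of 17 skeletal muscle markers 8 were tested and 3 rose: Tnnt3 (0.81 ± 0.12), Ckm (1.00 ± 0.22) and Neb (0.86 ± 0.20). Of the 8, 7 had a log2 fold change above 0, and Actn3 had -0.38 ± 0.21. Summed over the list, these markers stood at 40.4 to 53.0 CPM in MOZ WT and 60.0 to 63.3 CPM in MOZ KO, while the regulators that define the lineage were at or near 0 as given above. Of 8 ventricular markers 2 fell, Irx5 (-0.40 ± 0.07) and Irx4 (-0.25 ± 0.06). Of 10 genes listed as atrial, Myl1 rose (0.40 ± 0.06) and Kcnj5 fell (-0.19 ± 0.05). Myl1 encodes a light chain typical of fast skeletal muscle and is not part of the skeletal sum above. It had 129 to 155 CPM in MOZ WT and 180.2 to 199.8 CPM in MOZ KO. Of 4 smooth muscle genes, which embryonic heart muscle also uses, Tagln (0.35 ± 0.06) and Cnn1 (0.23 ± 0.05) rose.

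Of 6 epicardial markers 5 fell, with a median of -0.50 and a sum of 381 to 443 CPM in MOZ WT against 266 to 310.0 CPM in MOZ KO, and of 6 macrophage markers 5 rose (sum 11.6 to 22.2 against 31.7 to 38.1 CPM). Of 6 endothelial markers 2 rose and 1 fell. Of 8 genes of conduction tissue and sinus venosus, 6 erythroid, 3 liver and yolk sac, and 9 immediate early and heat shock genes, 0 passed by edgeR, DESeq2 or limma voom, with 3, 0, 1 and 0 at an unadjusted p under 0.05, which 14.2% of all genes reached. Without the hearts with Xist RNA, 0 cardiomyocyte, 2 skeletal muscle, 4 epicardial and 4 macrophage markers passed by edgeR, beside 1.88% of all genes. Summed erythroid markers ranged from 3342 to 13902 CPM in MOZ WT and from 4640.0 to 8035 CPM in MOZ KO. Shox2, from the conduction and sinus venosus list, ranged from 0.846 to 26.8 CPM within MOZ WT. Afp, from the liver and yolk sac list, had 12.1 CPM in MOZ KO replicate 3 and at most 1.04 in the other hearts. What lay behind these spreads was not tested.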

How the data were processed

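The deposited values are raw read counts per Entrez gene, whole numbers without normalization, with a gene length column, per the file headers. Reads were demultiplexed with bcl2fastq and counted with featureCounts on mm10, per the submitters' processing notes. Libraries came from a TruSeq stranded kit, per the labels' protocols. Not given in the sources used here were the aligner, the annotation, the versions and the strand setting. The 8 files of single hearts held the same counts as the table of the whole series, which was used. No column was left unused. A symbol was found in RefSeq (GRCm38.p6) for 25275 of 27179 IDs; the other 1904 held 1.05% of counts and stayed in the tests.

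Tests ran in edgeR 4.0.16 under R 4.3.3, with DESeq2 1.42.0 and limma 3.58.1 as alternatives; sequences were read with pandas 2.3.3 under Python 3.11.15. Genes were filtered with filterByExpr by group (15086 kept) and libraries scaled by trimmed mean of M values. MOZ KO was compared with MOZ WT over all 8 hearts by edgeR's robust quasi-likelihood test with Benjamini-Hochberg adjustment over all genes tested and a threshold of 0.05. SE was obtained from each log2 fold change and its F statistic (absolute value divided by the root of F). CPM used scaled library sizes, RPKM the deposited lengths, and log2 CPM a prior count of 2. The biological coefficient of variation was 9.10%; relative counting error is largest for genes of few counts, such as Sln. None of the 28 library pairs was a duplicate within sampling noise (chi-square per degree of freedom 8.25 to 30.5).

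The members and lists were chosen with earlier results of these data known. Named were all members. From each pathway list came up to 4 genes of smallest p among those past the threshold, or else up to 2. Each marker list gave up to 3 past the threshold. The 3 genes most like Casq1 and Casq2 were also named (average log2 CPM of at least 1, no Gm or Rik symbol). Ryr1, Ryr3, Jph1, Atp2a3, Cacna1c, Cacna1s, Fkbp1a, Fkbp1b, Mylpf, Actn3, Myh3, Tnnc2, Shox2, Afp, Egr1, Fos, Fosb, Jun, Junb, Ier2, Hspa1a, Hspa1b and Dnajb1 were named after their values were seen. Alternatives were DESeq2, limma voom (quality weights), edgeR with upper-quartile scaling or size factors of DESeq2, no filter, a filter at 1 CPM in 3 hearts, no robust moderation, a replicate block, leaving out the 2 hearts with Xist RNA, and leaving out each heart. Annotated overlaps were searched for the 10 members alone (RefSeq spans, GENCODE M21 exons): 5 overlap another gene and 2 a tested gene.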

Additional observations from a re-analysis of the deposited data

How the results depend on the processing

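Of all genes, 403 passed (217 higher, 186 lower), and 181 with a replicate block. Leaving out each heart gave 194 (without MOZ KO replicate 1) to 496 (without MOZ WT replicate 2), and 263 without MOZ KO replicate 3. Of the 56 pathway genes 5 passed, 9 by DESeq2, 1 with the replicate block, 1 without the hearts with Xist RNA, and 1 to 9 on leaving out each heart. Of the 10 members 3 passed, and 1 to 4 on leaving out each heart: Casq1 alone passed without MOZ KO replicate 1 or 2. The log2 fold change of Sln turned to 0.32 with the replicate block, 0.23 without the hearts with Xist RNA and 0.060 without MOZ WT replicate 5, in a range from -0.67 to 0.060 on leaving out each heart; the filter at 1 CPM in 3 hearts gave it no value. The causes were not tested. For the 10 members and the 9 pathway genes named by rule, 271 values under alternatives kept direction and side of the threshold, 37 no longer passed, 11 newly passed and 3 turned direction. With the block Casq1 and Atp2a1 passed among members. Replicate numbers have no stated meaning. Deviations of same-numbered hearts correlated at 0.02, -0.10 and -0.04, against -0.06 to 0.10 for hearts of unlike number. With 3 hearts per group compared, this cannot show whether hearts are paired, so the block result carries no statement on the effect. MOZ WT replicates 4 and 5 have no MOZ KO heart of their number. The block therefore comes close to leaving out the hearts with Xist RNA (Casq1 0.48 in both), and the 2 alternatives are not independent. Sln, with 4 to 30 counts per heart, is limited by depth.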
